A study of Mus musculus with 5 samples.

Results

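The cornified envelope genes encode the proteins from which a keratinocyte builds its outer shell, or that crosslink, cut or join that shell. They were taken as the protein-coding records of the deposited table whose gene name starts with Lce or Sprr, or is one of 14 further names: Lor, Ivl, Flg, Flg2, Hrnr, Rptn, Crct1, Kprp, Crnn, Tgm1, Tgm3, Tgm5, Casp14 or Cdsn. The rule used names only, not measured values. It found 48 of the 21667 gene records, under 43 names: 17 Lce genes, 12 Sprr genes and 19 other records. Flg, the gene of filaggrin, was split over 6 of these records. On chromosome 3, 43 records lay in a stretch of 1.32 Mb (92080271 to 93399442), the epidermal differentiation complex, and 5 lay elsewhere (Casp14, Tgm1, Cdsn, Tgm5 and Tgm3).

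The RNA came from total dorsal epidermis of wildtype C57BL/6 male mice, 7 weeks old (postnatal day 49), whose backs had been shaved. Forskolin, a plant compound that switches on adenylyl cyclase, was given at 10 µM to 1 group of 2 libraries. The other treated group, also of 2 libraries, received cAMP, the second messenger that this enzyme makes, at 1.325 mM. Both were carried in DMSO and PLO lotion and applied 3 times within 5 days, and 1 further library, labelled untreated, is called the control. Its labels do not tell if lotion was put on it, so an effect of lotion and one of the agents cannot be told apart in any comparison with it. Nothing in the labels ties a group's libraries to different mice, so p-values here reflect library-to-library spread alone, which may be technical. That spread was pooled largely over genes, as set out under the processing. The series asks what part cAMP signalling and the transcription factor Creb play when hair follicle stem cells become active.

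As a keratinocyte moves outward and dies, transglutaminases lay down involucrin under its membrane, then crosslink loricrin and small proline-rich (Sprr) proteins onto it, and late cornified envelope (Lce) proteins join last. Filaggrin bundles keratin inside the cell, and both it and its relatives carry an S100 domain fused to long repeats. Sprr1 and Sprr2 genes are known to rise in wounded or stressed skin, and AP-1, a dimer of Fos and Jun proteins, is a known regulator of several genes of the complex.

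Promoters are shown for 8 members, picked with the values of these data known, because the Lce and Sprr families differed in the words their promoters hold. A link between these words and the levels of the transcripts was not tested. RefSeq promoters on GRCm38.p6, from 250 bases before to 50 after the transcript start, were found for 40 of the 43 names (not for Lce1f, Crct1 and Kprp). The 250 upstream bases are printed 5′ to 3′ along the gene's own strand, with 2 words in capitals: the AP-1 word TGANTCA and the TATA box TATAAA. Lce1m, the Lce gene with the highest value in the control, was read from the minus strand at chr3:93019062-93019311, and Lce1a1, the next highest, from the minus strand at chr3:92648308-92648557. Lor, the gene of loricrin, was on the minus strand at chr3:92083143-92083392.
Lce1m: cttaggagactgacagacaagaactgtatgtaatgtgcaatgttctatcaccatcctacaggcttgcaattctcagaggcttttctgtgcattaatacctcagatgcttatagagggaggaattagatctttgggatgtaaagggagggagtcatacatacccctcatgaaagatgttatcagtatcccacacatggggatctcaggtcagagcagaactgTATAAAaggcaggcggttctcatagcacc
Lce1a1: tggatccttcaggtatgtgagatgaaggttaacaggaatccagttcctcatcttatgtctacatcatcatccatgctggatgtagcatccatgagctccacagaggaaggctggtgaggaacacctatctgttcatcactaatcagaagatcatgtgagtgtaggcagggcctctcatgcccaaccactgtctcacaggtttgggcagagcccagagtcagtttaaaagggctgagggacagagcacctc
Lor: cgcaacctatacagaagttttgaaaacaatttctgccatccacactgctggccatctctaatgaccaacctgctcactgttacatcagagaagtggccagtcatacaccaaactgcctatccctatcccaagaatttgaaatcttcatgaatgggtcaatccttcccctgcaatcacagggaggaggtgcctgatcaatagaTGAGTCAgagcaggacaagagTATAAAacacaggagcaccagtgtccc
Sprr1a (chr3:92485882-92486131) and Sprr1b (chr3:92438780-92439029) were on the minus strand. Sprr2h (chr3:92385435-92385684) and Sprr2a1 (chr3:92215585-92215834) were on the plus strand, as was Rptn (chr3:93393449-93393698), the gene of repetin.
Sprr1a: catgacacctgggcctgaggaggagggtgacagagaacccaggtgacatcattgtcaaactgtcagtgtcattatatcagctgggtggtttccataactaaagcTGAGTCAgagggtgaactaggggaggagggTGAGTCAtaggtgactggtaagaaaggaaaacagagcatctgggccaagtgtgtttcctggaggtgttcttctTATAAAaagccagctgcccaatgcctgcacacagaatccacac
Sprr1b: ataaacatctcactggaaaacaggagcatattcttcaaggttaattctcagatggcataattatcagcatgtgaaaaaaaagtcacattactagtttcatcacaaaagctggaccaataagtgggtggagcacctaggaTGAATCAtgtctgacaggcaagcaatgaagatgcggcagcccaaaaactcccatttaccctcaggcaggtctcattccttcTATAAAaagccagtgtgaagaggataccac
Sprr2h: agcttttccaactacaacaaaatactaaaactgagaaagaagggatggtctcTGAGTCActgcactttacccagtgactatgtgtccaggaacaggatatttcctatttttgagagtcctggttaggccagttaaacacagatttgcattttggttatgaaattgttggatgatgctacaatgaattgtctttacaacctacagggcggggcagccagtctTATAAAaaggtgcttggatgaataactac
Sprr2a1: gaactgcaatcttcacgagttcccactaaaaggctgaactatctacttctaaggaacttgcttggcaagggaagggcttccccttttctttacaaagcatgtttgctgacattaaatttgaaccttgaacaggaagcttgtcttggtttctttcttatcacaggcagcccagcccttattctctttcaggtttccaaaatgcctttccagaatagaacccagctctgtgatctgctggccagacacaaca
Rptn: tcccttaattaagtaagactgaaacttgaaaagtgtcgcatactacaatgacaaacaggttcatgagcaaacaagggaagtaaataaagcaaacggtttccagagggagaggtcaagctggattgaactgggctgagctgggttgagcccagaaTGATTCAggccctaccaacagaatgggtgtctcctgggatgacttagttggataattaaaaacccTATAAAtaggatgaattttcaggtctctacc
The Sprr2a1 window is shown for the Sprr2a2 record as well: that record starts at 92215920, inside the Sprr2a1 record (92215799 to 92221911), and the RefSeq windows of both genes were 100% identical.

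Searched on both strands, the AP-1 word was in 0 of 16 Lce promoters, 8 of 12 Sprr promoters and 6 of 12 others (Crnn, Flg, Flg2, Ivl, Lor and Rptn). Over all 32851 RefSeq promoters of this length the share was 7.81%. The 8 Sprr promoters with it were those of Sprr1a, which held it at 2 places, Sprr1b, Sprr2b, Sprr2d, Sprr2e, Sprr2f, Sprr2h and Sprr2i. Those same 8 held the TATA box, which was in 3 Lce promoters (Lce1d, Lce1m and Lce6a), 7 others and 13.6% of all promoters. Sprr2a1, Sprr2a2, Sprr2a3 and Sprr4 held neither word. The half-site of the element that CREB binds, TGACG, was in no Lce or Sprr promoter and in 2 others (Flg2 and Tgm3), against 20.8% of all promoters. Its full form, TGACGTCA, which contains the half-site, was in none of the 40 and in 1.79% of all. CACCC, a word bound by KLF factors, was in 7 Lce, 5 Sprr and 10 other promoters, against 57.5% of all. Promoters of tandem gene copies resemble each other, so these matches are not independent: those of the Lce1 genes other than Lce1m were 51.0% to 81.0% identical (median 66.3%), and Lce1m was 52.4% to 55.2% identical to them. For Flg2, Lce6a and Sprr2a2 the RefSeq start lay 480 to 34727 bases from the start of the listed record. The upstream window of Flg ended at 93273545, beside the first of its records, which starts at 93273541.

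**Figure D1:**
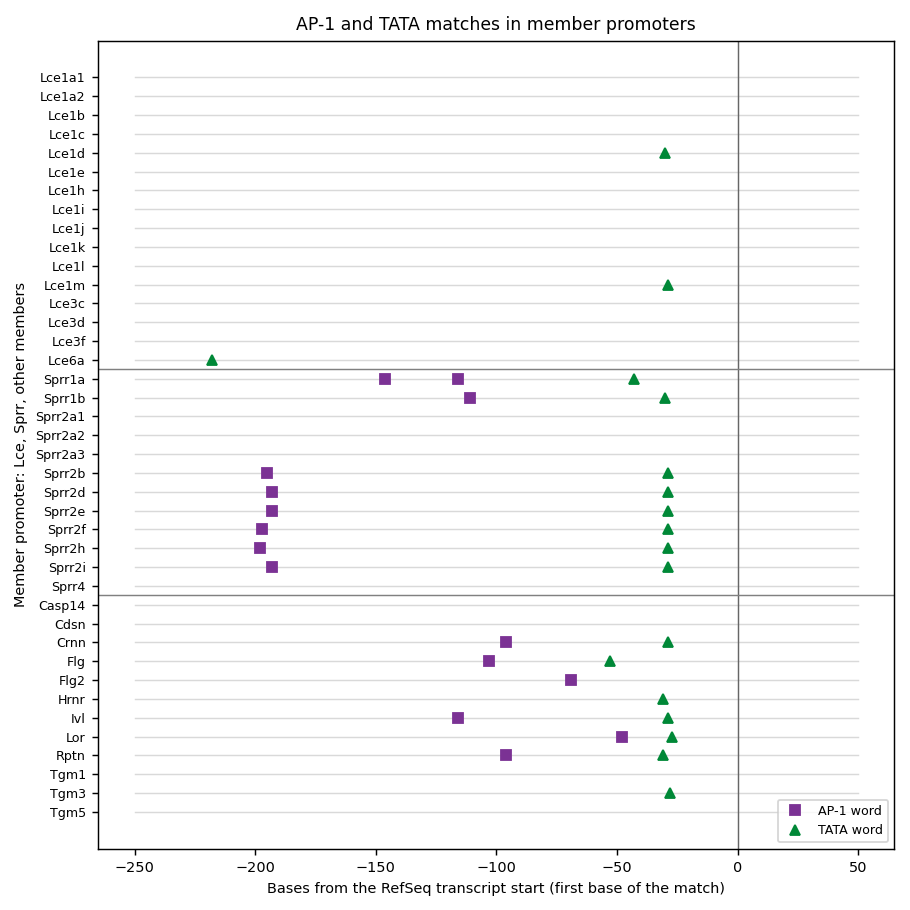
AP-1 words (squares) and TATA boxes (triangles) in the 40 member promoters, 1 row a gene, against the distance in bases from the RefSeq transcript start to the first base of the match. The Lce rows hold no square, and the Sprr2 squares stand in 1 column from -198 to -193.

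Summed Lce and summed Sprr transcripts moved in opposite directions. In deposited CPM, a read value scaled to the library's total, the 17 Lce genes summed to 88.9 in the control, 8.84 and 4.47 with forskolin, and 7.53 and 2.98 with cAMP. The 12 Sprr genes summed to 19.7 in the control, 188 and 184 with forskolin, and 167 and 100.4 with cAMP. All 4 treated libraries lay below the control for Lce and above it for Sprr. The 19 other records summed to 149 in the control, 220 and 235 with forskolin, and 208 and 95.6 with cAMP, so that their cAMP libraries fell on both sides of the control. Because RNA was taken from whole tissue, fewer cells of a type and less RNA per cell cannot be told apart.

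Shares within the group do not depend on how libraries are scaled to each other. Of the summed member CPM, Lce genes took 34.5% in the control, 1.59 ± 0.75% with forskolin (SD, n = 2) and 1.74 ± 0.33% with cAMP (SD, n = 2). Sprr genes took 7.66%, 44.3 ± 1.22% and 47.0 ± 4.82%. Other members held 57.8%, 54.2 ± 1.97% and 51.2 ± 4.49%. Divided by transcript length, the Lce share was 52.5%, 3.45 ± 1.77% and 3.17 ± 0.99%, and the Sprr share 15.03%, 58.1 ± 0.76% and 65.0 ± 7.30%. The ratio of summed Sprr to summed Lce was 0.222 in the control, 21.3 and 41.1 with forskolin, and 22.2 and 33.6 with cAMP. The 4 treated libraries thus lay 7.00 log2 units above the control on average; an exact permutation test over 5 libraries gave p = 0.2 (2-sided), the smallest this design allows. Forskolin and cAMP differed in this ratio by 0.12 log2 units (exact permutation p = 1, 2-sided; the smallest possible is 0.333). The ratio did not rest on 1 gene: without Sprr2a2 it was 0.203 in the control and 9.81 to 21.4 in treated libraries, and without Lce1m 0.401 and 29.3 to 48.9. It moves with the Lce fall as well as with the Sprr level, so it does not show a rise of the other Sprr genes.

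**Figure D2:**
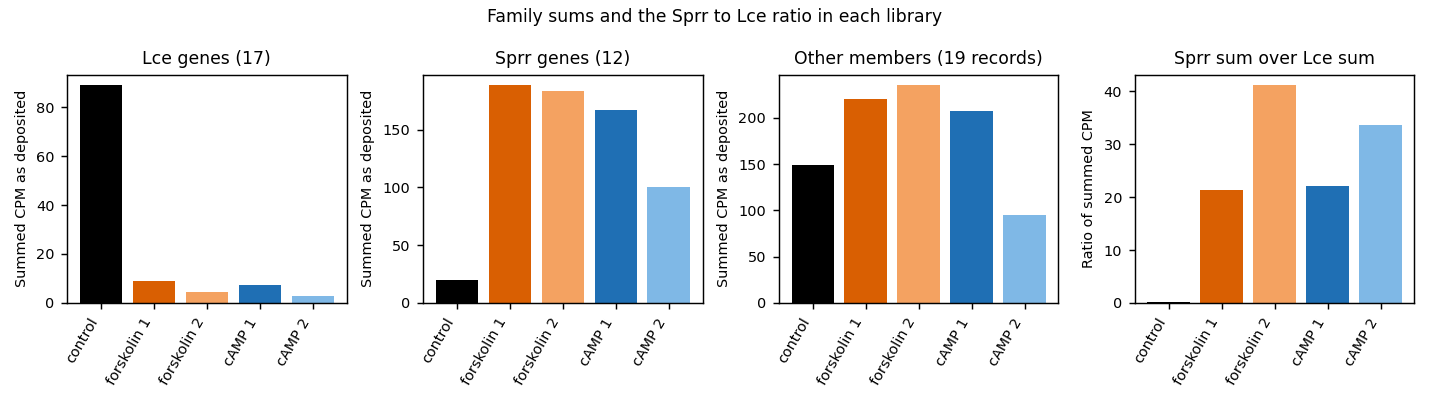
Summed CPM of the Lce genes, the Sprr genes and the other members, and the ratio of Sprr to Lce sums, with 1 bar a library. The control bar is the highest for Lce (88.9 CPM) and the lowest for Sprr (19.7 CPM), and its ratio of 0.222 lies under a treated range of 21.3 to 41.1.

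The control library also differed from the treated ones in make-up, and this bears on every difference in level from it. Mitochondrial genes took 69.3% of its listed CPM and 43.1% to 58.0% of a treated library, while nuclear genes (without pseudogenes and rRNA) made up 7.90% and 25.9% to 38.0%. The median tested gene was 1.69 log2 units higher with forskolin than in the control as deposited, and 1.66 higher with cAMP. Median-of-ratios scaling, which divides each library by its median ratio to the mean library, reduced these shifts to 0.18 and 0.16, and results are given on both scales. Keratinocyte markers were high throughout: 6 spinous markers (Krt1, Krt10, Dsg1a, Dsc1, Krtdap and Sbsn) summed to 1879 CPM in the control and 1247 to 2990 in treated libraries. As deposited, 7 markers of the upper hair follicle summed to 198 CPM in the control and 1407 to 3013 in treated libraries, 8 sebaceous markers to 166 and 1507 to 5578, and 8 dermal fibroblast markers to 185 and 22.4 to 312. After median-of-ratios scaling the spinous sum was 5928 in the control and 1116 to 2103 in treated libraries, the upper follicle sum 624 and 1079.6 to 1825, the sebaceous sum 524 and 1059.9 to 4994, and the fibroblast sum 584 and 15.7 to 279. Basal, T cell and Langerhans markers summed to 1275, 75.1 and 116 CPM in the control and 2468 to 5860, 234 to 518 and 329 to 897 in treated libraries as deposited. Rescaled they stood at 4020.0, 237 and 366 in the control and 2210 to 4121, 209 to 364 and 295 to 631 in treated libraries. No marker of these 7 lists was at or below 3 estimated reads in all libraries, although Pparg (sebaceous) and Pdgfra (fibroblast) were under 1 read in the control. The part of these shifts in the member results was not tested.

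Of the 48 records, 29 had at least 1 CPM in at least 2 libraries and were tested: 6 Lce genes (all Lce1), 8 Sprr genes and 15 others. Of the 19 not tested, 5 reached 1 CPM in the control alone, 3 in 1 treated library alone and 11 in none. With 1 control library, this filter cannot pass a gene that is high only there. A member under 1 CPM in the control enters through treated libraries alone, so its rise against the control is a description. This holds for Sprr2a1, Sprr2a3, Sprr2d, Sprr2h, Tgm1 and the tested Flg records, and the counts of higher members include those of them that were called. As deposited, limma called 14 members higher with forskolin than in the control and 8 lower, where 66.3% of all tested genes were higher and 0.341% lower (66.7% in either direction). For cAMP against the control the counts were 7 and 7, against 65.1% and 0.436% of all tested genes (65.6% in either direction). With median-of-ratios scaling, 5 members were higher and 13 lower with forskolin (14.4% and 7.39% of all tested genes, 21.8% in either direction), and 2 and 13 with cAMP (14.8% and 7.78%, 22.6% in either direction). The members' median log2 difference was 1.12 with forskolin and 0.31 with cAMP as deposited, and -0.12 and -0.99 with median-of-ratios scaling. Setting the members listed under 1 read in the control at their bound, a control of 3 reads, gave medians of 1.82 and 0.59 as deposited and -0.12 and -1.24 with that scaling; for cAMP, members under the floor in both groups were left out (1 and 2).

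**Figure D3:**
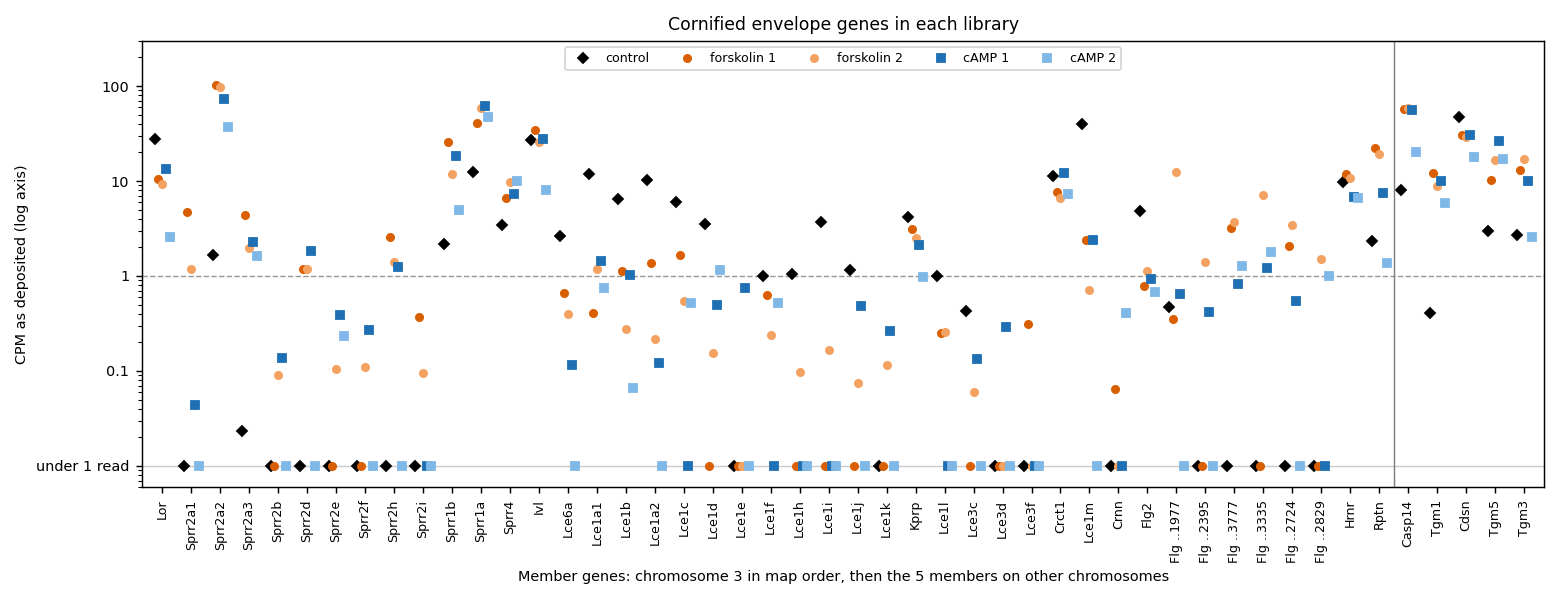
CPM of each of the 48 member records in each of the 5 libraries on a log axis, with chromosome 3 in map order and then the 5 members on other chromosomes; the bottom line holds values under 1 estimated read. In the Lce1 stretch the black control diamonds stand above the coloured treated points except at Lce1e and Lce1k, and in the Sprr2 stretch they stand at the bottom line or, for Sprr2a2 at 1.68 CPM and Sprr2a3, below the treated points.

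Late cornified envelope genes were lower in the treated libraries for most of the family. Of the 17, 13 had all 4 treated libraries below the control, whether as deposited (6.27% of all genes did) or with median-of-ratios scaling (27.2%), and none had all 4 above. The exceptions were Lce1e, Lce1k, Lce3d and Lce3f, each under 1 read in the control and at most 0.743 CPM elsewhere. Lce1m (ENSMUSG00000027912, chromosome 3, 93017810 to 93019060) stood at 39.7 CPM in the control, 2.41 and 0.709 with forskolin, 2.42 with cAMP 1 and under 1 read with cAMP 2. Forskolin libraries held 25.4-fold less on average and cAMP libraries 32.8-fold less. Its log2 difference was -4.08 ± 0.63 with forskolin (SE; limma adjusted p = 2.41e-08) and -4.46 ± 0.63 with cAMP (limma adjusted p = 8.32e-10).

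Lce1a1 was at 11.97 CPM in the control, 0.404 and 1.18 with forskolin and 1.43 and 0.740 with cAMP. Lce1a2 was at 10.3 CPM in the control, then 1.37 and 0.214 with forskolin, 0.122 with cAMP 1 and under 1 read with cAMP 2. Both fell in both comparisons (limma adjusted p from 1.09e-05 to 0.00035), with log2 differences of -2.66 to -3.42. Lce1b stood at 6.43 CPM in the control against 1.14, 0.273, 1.03 and 0.0665 in the order forskolin 1 and 2, cAMP 1 and 2. Lce1c had 5.96 CPM in the control, 1.67 and 0.540 with forskolin, under 1 read with cAMP 1 and 0.517 with cAMP 2. Lce1d had 3.51 CPM in the control, under 1 read and 0.154 with forskolin, and 0.497 and 1.14 with cAMP. These 3 genes fell with forskolin (log2 differences of -2.17, -1.78 and -2.07; limma adjusted p = 0.00391, 0.0172 and 0.00741), and Lce1b and Lce1c fell with cAMP (-2.34 and -2.50), while Lce1d was at -1.33 with cAMP (limma adjusted p = 0.0828).

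After median-of-ratios scaling all 6 tested Lce1 genes passed in both comparisons, at -3.50 to -5.95 with forskolin and -2.90 to -6.33 with cAMP. The median of the 6 was -2.45 with forskolin and -2.58 with cAMP as deposited, beside 1.69 and 1.66 for all tested genes, and -4.16 and -4.25 with that scaling, beside 0.18 and 0.16. Single libraries mattered for 3 of them in the forskolin comparison: without forskolin 2, Lce1b (limma adjusted p = 0.0719) and Lce1c (0.160) did not pass, and without forskolin 1, Lce1d did not (0.0676). A pseudocount of 0.1 (limma adjusted p = 0.103) or no filter on low values (0.0620) also ended the Lce1c call.

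The fit with no filter covered all 48 records and so the 11 Lce genes left out above. It called 8 of 17 Lce genes lower with forskolin (1.48% of 21667 genes) and 9 with cAMP (1.88%), none higher, and with median-of-ratios scaling 12 (5.75%) and 13 (6.72%). Over all 48 members that rescaled fit called 2 higher with forskolin (3.46% of all genes, 9.21% in either direction) and 1 with cAMP (4.17%). Lce6a was at 2.65 CPM in the control, 0.660 and 0.394 with forskolin, 0.116 with cAMP 1 and under 1 read with cAMP 2. Lce1i had 3.69 CPM in the control and was under 1 read in every treated library but forskolin 2, at 0.167; against 3 reads, the control was at least 42.0-fold higher than the cAMP libraries. Lce1h, Lce1j, Lce1f and Lce1l stood at 1.04, 1.16, 0.9998 and 1.01 CPM in the control and between under 1 read and 0.632 CPM in treated libraries. The Lce3 genes, which are known for their rise in injured or psoriatic skin, were low throughout and reached at most 0.425 CPM: Lce3c was at 0.425 CPM in the control, under 1 read with forskolin 1, 0.0601 with forskolin 2, 0.132 with cAMP 1 and under 1 read with cAMP 2. With no filter Lce3c did not pass as deposited (-0.47 and -0.42; limma adjusted p = 0.129 and 0.165) and was lower after rescaling (-1.19 and -1.17; 0.0245 and 0.0215).

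Copies of Lce1 genes share sequence, so reads can be split between them. Of the 50-base stretches in their transcripts, 9.12% to 27.1% also occurred in another gene for Lce1a1 to Lce1l, 35.7% to 49.3% for the Lce3 genes and 0% for Lce1m and Lce6a. The summed Lce value avoids a split among Lce genes. It rested on an estimated 4389 reads in the control and 102 to 429 in a treated library.

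Of the 8 tested small proline-rich genes, 6 rose with forskolin and 4 with cAMP as deposited, none fell, and 66.3% and 65.1% of all tested genes were higher. After median-of-ratios scaling 2 were higher with forskolin and 1, Sprr2a2, with cAMP, against 14.4% and 14.8% of all tested genes. Sprr2a2 (ENSMUSG00000068893) was at 1.68 CPM in the control, 102 and 97.4 with forskolin, and 73.1 and 36.6 with cAMP. Forskolin libraries held 59.3-fold more on average and cAMP libraries 32.7-fold more. The log2 difference was 5.23 ± 0.58 with forskolin (SE; limma adjusted p = 1.4e-14) and 4.30 ± 0.58 with cAMP (8.13e-11), and 3.55 ± 0.38 (2.39e-05) and 2.64 ± 0.38 (0.000132) with median-of-ratios scaling. No alternative run ended either call. After median-of-ratios scaling the 12 Sprr genes summed to 62.2 in the control, 132 and 140 with forskolin, and 101 and 89.9 with cAMP. Sprr2a2 alone was at 5.29 in the control, 71.4 and 74.1 with forskolin, and 44.3 and 32.8 with cAMP. The rise of the rescaled Sprr sum thus lay mostly in this 1 gene.

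The division of reads between Sprr2a2 and its copies is uncertain: 96.5% of its 50-base stretches, 96.3% of those of Sprr2a1 and 61.1% of those of Sprr2a3 also occurred in another gene. Sprr2a1 was under 1 read in the control and with cAMP 2, at 4.68 and 1.18 CPM with forskolin and at 0.0442 with cAMP 1. Sprr2a3 was at 0.0234 CPM in the control, 4.39 and 1.97 with forskolin and 2.26 and 1.63 with cAMP. Sprr2a1 reached 1 CPM in the forskolin libraries alone, so it entered the test through the group in which it is high, and its test (log2 difference 1.81, limma adjusted p = 0.0198) is given as a description. Sprr2a3, which entered through the treated libraries alone, stood higher with forskolin (1.97, limma adjusted p = 0.00649) and with cAMP (1.52, 0.0351), likewise as a description. With no filter neither gene passed with forskolin (limma adjusted p = 0.0716 and 0.0545), nor did Sprr2a3 with cAMP (0.103). On the median-of-ratios scale Sprr2a3 passed with forskolin (1.57, limma adjusted p = 0.0424) but not with cAMP (1.17, 0.120), and Sprr2a1 did not pass (1.51 with forskolin, 0.0758). Without forskolin 1, Sprr2a3 did not pass with forskolin (limma adjusted p = 0.141), and its cAMP call ended without forskolin 1 (0.0788), forskolin 2 (0.0689) or cAMP 1 (0.0756).

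Among the Sprr2 genes with few shared stretches, Sprr2h was under 1 read in the control and with cAMP 2, at 2.60 and 1.40 CPM with forskolin and at 1.24 with cAMP 1. Sprr2h too entered the test through treated libraries alone. It passed narrowly with forskolin as deposited (log2 difference 1.55, limma adjusted p = 0.0424) and not with median-of-ratios scaling (1.27, 0.116) or without forskolin 1 (0.256) or forskolin 2 (0.0758). Sprr2d showed 1.18 and 1.19 CPM with forskolin and 1.85 with cAMP 1, was under 1 read in the control and with cAMP 2, and did not pass (1.12 with forskolin, limma adjusted p = 0.145). Sprr2b, Sprr2e, Sprr2f and Sprr2i, not tested, were under 1 read in the control and reached at most 0.391 CPM. Against 3 reads in the control, forskolin libraries were on average at least 48.2-fold higher for Sprr2a1, 32.9-fold for Sprr2h and 19.4-fold for Sprr2d, and at least 10.9-fold, 7.54-fold and 4.51-fold with median-of-ratios scaling.

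Sprr1a and Sprr1b, the pair known for induction in stressed epidermis, rose as deposited and did not pass after rescaling. Sprr1a (ENSMUSG00000050359) was at 12.4 CPM in the control, 41.0 and 58.5 with forskolin, and 61.7 and 46.9 with cAMP. Its log2 difference was 1.90 with forskolin (limma adjusted p = 0.00271) and 2.04 with cAMP (0.00139), and -0.12 and 0.02 with median-of-ratios scaling (0.847 and 0.972). Sprr1b had 2.19 CPM in the control, 26.0 and 11.9 with forskolin, and 18.5 and 4.92 with cAMP. It rose by 2.55 log2 units with forskolin (limma adjusted p = 0.000109) and 1.75 with cAMP (0.00674), and was at 0.82 and 0.04 with median-of-ratios scaling (0.254 and 0.964). Without forskolin 2 Sprr1a did not pass with forskolin (limma adjusted p = 0.0803), and without cAMP 1 Sprr1b did not pass with cAMP (0.89, 0.167). Sprr4 was at 3.48 CPM in the control, 6.55 and 9.83 with forskolin, and 7.32 and 10.04 with cAMP. All 4 lay above the control, but its differences of 1.01 and 1.10 did not pass (limma adjusted p = 0.112 and 0.0875) and became -0.80 and -0.70 with median-of-ratios scaling. As deposited it passed with forskolin without cAMP 1 (limma adjusted p = 0.0446) or cAMP 2 (0.0472), and with cAMP without cAMP 1 (1.30, 0.0365).

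The median of the 8 tested Sprr genes was 1.86 with forskolin and 1.31 with cAMP as deposited (1.69 and 1.66 for all tested genes), and 1.09 and 0.22 with median-of-ratios scaling (0.18 and 0.16). With members under 1 read in the control at their bound these became 3.41 and 2.04 as deposited, and 1.87 and 0.97 with that scaling. These medians mix fold bounds with fitted log2(CPM + 1) differences, and Sprr2a3, with about 1 read in the control, kept its fitted value. Of the 12 Sprr genes, 5 had all 4 treated libraries above the control as deposited (60.8% of all genes did) and 2, Sprr2a2 and Sprr2a3, with median-of-ratios scaling (30.3%). On a per-length scale the most abundant of the 48 records was Lce1m in the control, at 45.4 CPM per kb of transcript, and Sprr1a in each treated library, at 50.8 and 72.6 with forskolin and 76.6 and 58.2 with cAMP.

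Loricrin and involucrin, the scaffold proteins of the envelope, differed from each other. Lor was at 27.9 CPM in the control, 10.4 and 9.38 with forskolin, and 13.5 and 2.60 with cAMP. It fell in both comparisons (log2 differences of -1.41 and -2.002; limma adjusted p = 0.0274 and 0.002), and by more with median-of-ratios scaling (-3.44 and -4.01). The forskolin call did not hold without forskolin 1 (limma adjusted p = 0.119) or forskolin 2 (0.142), nor the cAMP call without cAMP 2 (0.0611). With no filter neither passed as deposited (limma adjusted p = 0.245 and 0.122), and both did with median-of-ratios scaling. Ivl, the gene of involucrin, had 26.9 CPM in the control, 34.5 and 25.8 with forskolin, and 27.5 and 8.08 with cAMP, so that treated libraries lay on both sides. It did not pass as deposited (0.14 and -0.79), except with cAMP when cAMP 1 was left out (-1.62, limma adjusted p = 0.0093), and with median-of-ratios scaling it was lower in both comparisons (-1.91 and -2.83; limma adjusted p = 0.00611 and 0.000284). The ratio of Lor to Ivl, which no scaling between libraries alters, was 1.04 in the control, 0.301 and 0.363 with forskolin, and 0.491 and 0.322 with cAMP.

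Genes of the filaggrin type went several ways. Flg2, a filaggrin relative, was at 4.84 CPM in the control, 0.783 and 1.12 with forskolin, and 0.929 and 0.673 with cAMP. It fell in both comparisons (log2 differences of -1.59 and -1.70; limma adjusted p = 0.0304 and 0.0206), though not with forskolin when forskolin 1 was left out (0.154) or no filter was used (0.0544). Rptn, a late granular layer protein, had 2.31 CPM in the control, 22.2 and 19.5 with forskolin, and 7.43 and 1.38 with cAMP. It rose with forskolin (2.72 ± 0.59, SE; limma adjusted p = 4.49e-05; 0.97 and 0.168 with median-of-ratios scaling) and did not pass with cAMP (0.44, 0.501; -1.24 with that scaling). For cAMP single libraries decided the call: without cAMP 2 it was higher as deposited (1.35, limma adjusted p = 0.0181), and without cAMP 1 it was lower after rescaling (-1.89, 0.0206). Hrnr, the gene of hornerin, had 9.82 CPM in the control, 11.9 and 10.8 with forskolin, and 6.85 and 6.61 with cAMP. It passed in neither comparison as deposited (0.19 and -0.49) and was lower in both with median-of-ratios scaling (-1.78 and -2.42; limma adjusted p = 0.00657 and 0.00062). Crnn, the gene of cornulin, reached 0.409 CPM with cAMP 2 and 0.065 with forskolin 1 and was under 1 read elsewhere.

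Flg could not be read as 1 gene, since the table splits it over separate records. Summed over the 6, it was at 0.466 CPM in the control, 5.62 and 29.7 with forskolin, and 3.63 and 4.03 with cAMP. Forskolin 2 thus stood above the rest. The record ENSMUSG00000103777 was under 1 read in the control, at 3.18 and 3.74 CPM with forskolin and at 0.820 and 1.27 with cAMP. It stood higher with forskolin on both scales (log2 differences of 2.15 and 1.82, limma adjusted p = 0.00342 and 0.0222). This is a description, since it entered the test through treated libraries alone. The record ENSMUSG00000102724 had 2.09 and 3.48 CPM with forskolin, 0.543 with cAMP 1 and under 1 read in the control and with cAMP 2; it reached 1 CPM in the forskolin libraries alone and so entered the test through them (1.89 and 1.58; limma adjusted p = 0.0133 and 0.0498). With no filter and median-of-ratios scaling neither record passed with forskolin (limma adjusted p = 0.0543 and 0.0649), while both did with no filter as deposited (0.0288 and 0.0377). Without forskolin 2 neither record passed on the rescaled values (limma adjusted p = 0.0941 and 0.244). The record ENSMUSG00000103335 passed with forskolin as deposited (1.51, limma adjusted p = 0.046), but forskolin 1 was under 1 read there, forskolin 2 was at 7.06 CPM, cAMP was at 1.22 and 1.77, and without forskolin 2 the difference was 0.00. GENCODE M21 has a single Flg gene across the positions of these records. How the table's records were made is not given in the sources used here, so they are not counted as separate genes.

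Crct1 and Kprp, further genes of the complex, did not pass as deposited and were lower after rescaling. Crct1 stood at 11.4 CPM in the control, 7.58 and 6.64 with forskolin, and 12.2 and 7.34 with cAMP. Kprp, the gene of a keratinocyte proline-rich protein, had 4.16 CPM in the control, 3.13 and 2.52 with forskolin, and 2.13 and 0.966 with cAMP, all below the control. As deposited the log2 differences were -0.24 to -1.06, though without cAMP 1 Kprp passed with cAMP (-1.39, limma adjusted p = 0.0422). Both were lower with median-of-ratios scaling (-2.21 to -2.77; limma adjusted p from 0.000421 to 0.00428).

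Transglutaminases, the enzymes that crosslink the envelope, lay higher in treated libraries as deposited, except Tgm3 with cAMP 2. Tgm1, the main envelope transglutaminase, was at 0.405 CPM in the control, 12.2 and 8.79 with forskolin, and 10.1 and 5.88 with cAMP. It stood higher in both comparisons as deposited (3.01 ± 0.59 and 2.63 ± 0.59, SE, limma adjusted p = 7.53e-06 and 7.84e-05). The same held after median-of-ratios scaling (1.91 and 1.55, limma adjusted p = 0.00651 and 0.0191). These tests are given as a description, since Tgm1 entered through treated libraries alone. Quantile normalization ended the cAMP call (1.14, limma adjusted p = 0.0928), as did median-of-ratios scaling with no filter (1.55, 0.0634). Without cAMP 1 the rescaled cAMP difference was 1.46. Tgm5 was at 2.98 CPM in the control, 10.2 and 16.7 with forskolin, and 26.7 and 16.999 with cAMP. Tgm3 was at 2.73 CPM in the control, 13.2 and 16.999 with forskolin, and 9.91 and 2.60 with cAMP. Tgm5 rose in both comparisons (1.82 and 2.49; limma adjusted p = 0.0042 and 0.000125) and Tgm3 with forskolin (2.10, 0.00133). None of these 3 calls held with median-of-ratios scaling (0.03, 0.68 and 0.32), and Tgm5 did not pass with forskolin when forskolin 2 was left out (0.105). Tgm3 passed with cAMP as deposited when cAMP 2 was left out (1.55, limma adjusted p = 0.0096).

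Casp14, the gene of a protease that cuts filaggrin, had 8.12 CPM in the control, 58.0 and 58.2 with forskolin, and 56.5 and 20.1 with cAMP. It rose in both comparisons as deposited (2.70 and 1.93; limma adjusted p = 3.36e-05 and 0.00242) and was at 0.71 and -0.04 with median-of-ratios scaling (0.219 and 0.953). Cdsn, the gene of corneodesmosin, which holds cornified cells together, had 46.9 CPM in the control, 30.4 and 29.2 with forskolin, and 30.5 and 17.9 with cAMP. All 4 treated values lay below the control. It did not pass as deposited (-0.64 and -0.97; limma adjusted p = 0.307 and 0.120), except with cAMP when cAMP 1 was left out (-1.34, 0.0209), and was lower with median-of-ratios scaling (-2.71 and -3.03; 0.000147 and 3.32e-05).

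**Figure D4:**
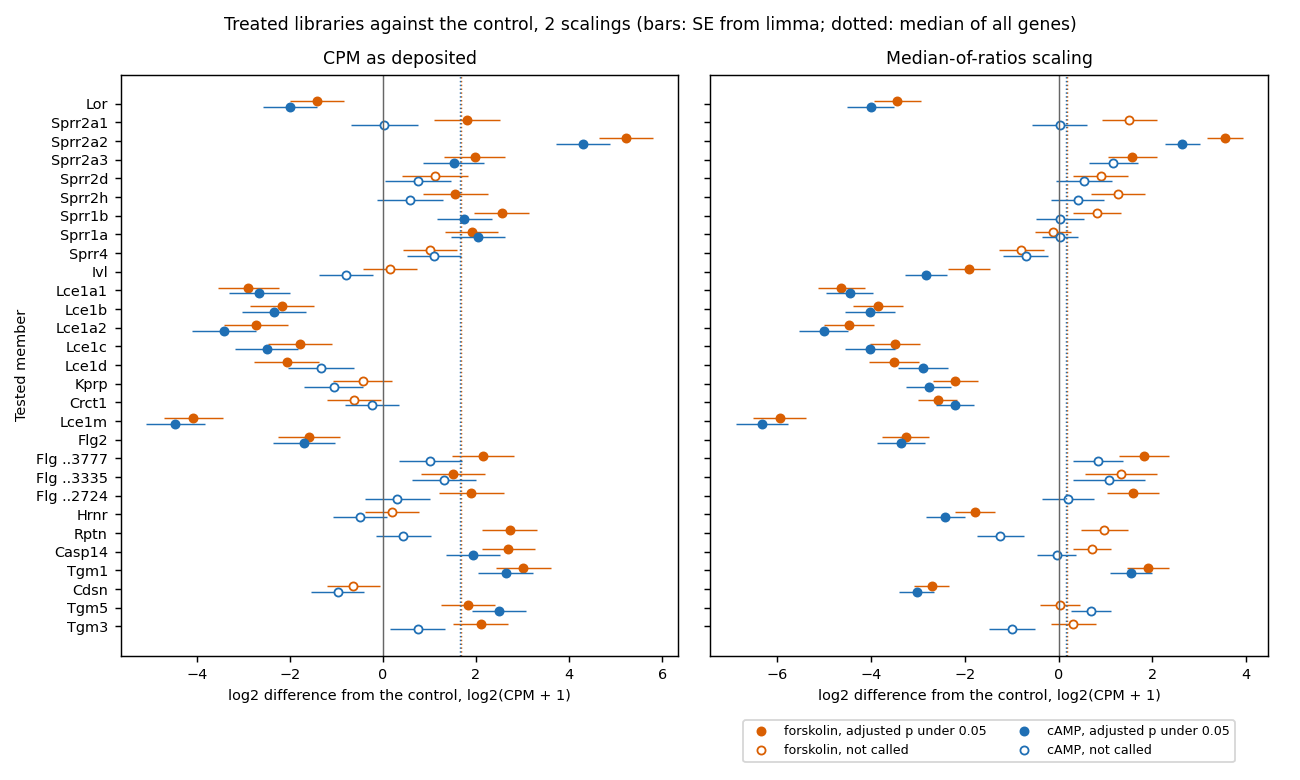
Difference from the control of the 29 tested members, in log2(CPM + 1), for forskolin (orange) and cAMP (blue), as deposited and with median-of-ratios scaling; bars are SEs from limma and dotted lines the median of all tested genes (1.69 and 1.66, then 0.18 and 0.16). The 6 Lce1 genes lie left of 0 in both panels and Sprr2a2 and Tgm1 right of it, while Sprr1a moves from 1.90 to -0.12 and Ivl from 0.14 to -1.91 with forskolin.

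Of all 48 records, 17 had their 4 treated libraries below the control as deposited, against 6.27% of all genes, and 9 had them above, against 60.8%. With median-of-ratios scaling the counts were 21 (27.2%) and 4 (30.3%), and the same with scaling to nuclear genes (25.1% and 32%). The 4 above were Tgm1, Sprr2a2, Sprr2a3 and the Flg record ENSMUSG00000103777. With no filter on low values, 7 members were called higher with forskolin as deposited (27.3% of all genes) and 4 with cAMP (27.3%). Among those it did not call were Sprr2a1, Sprr2a3, Sprr2h, Sprr1b, Tgm3 and Rptn with forskolin (limma adjusted p from 0.0526 to 0.101) and Casp14, Sprr2a3 and Sprr1b with cAMP (0.0683 to 0.167).

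Only 1 of the 29 tested members, Rptn, differed between forskolin and cAMP in limma's test as deposited. The agents were given at different concentrations (10 µM and 1.325 mM), so this compares the treatments as applied. Rptn was higher with forskolin, and none was lower, where 0.378% of all tested genes were called in either direction. An unadjusted limma p under 0.05 was found for 7 members. The share of all tested genes at that threshold was not counted, so no excess is read from it. Rptn stood 2.28 ± 0.48 log2 units higher (SE; limma adjusted p = 0.00287), and 2.21 ± 0.41 with median-of-ratios scaling (0.0298), where 0.0944% of all tested genes were higher and 0.349% were called in either direction. Both forskolin libraries, at 22.2 and 19.5 CPM, lay above both cAMP libraries, at 7.43 and 1.38. The call was lost at a pseudocount of 0.1 (limma adjusted p = 0.0701), with no filter (0.895), with protein-coding transcripts only (0.119), or without forskolin 1 (0.477), forskolin 2 (0.290) or cAMP 2 (1.37, 0.218). Next came Sprr2a1 (1.78, limma adjusted p = 0.224), the Flg record ENSMUSG00000102724 (1.58, 0.340) and Tgm3 (1.35, 0.336), and at the other end Lce1d (-0.74, 0.958) and Tgm5 (-0.67, 0.932), none of which passed. Without cAMP 1, Tgm3 passed as well (2.15, limma adjusted p = 0.0389).

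The intervals of the other differences were wide, so a missing call does not show that the treatments act alike. The SE of a single difference was 0.47 to 0.58 log2 units. For Lce1m the difference was 0.39 (95% interval from -0.63 to 1.40), for Sprr1a -0.13 (-1.06 to 0.79), for Lor 0.59 (-0.35 to 1.53) and for Tgm1 0.38 (-0.57 to 1.33). For Sprr2a2 it was 0.93 (0.003 to 1.85; limma adjusted p = 0.730). The medians of the Lce, Sprr and other members were 0.28, 0.62 and 0.62, beside 0.03 for all tested genes. Of the 48 records, 15 had both forskolin libraries above both cAMP libraries as deposited (17.5% of all genes) and 3 had both below (13.3%), or 18 and 4 with median-of-ratios scaling (20.7% and 15.3%).

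**Figure D5:**
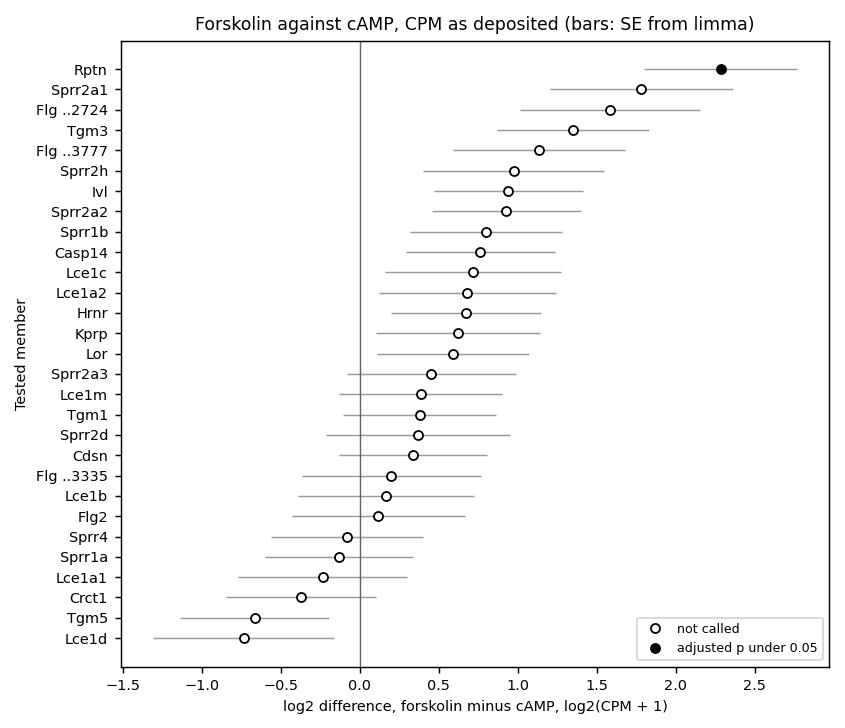
Forskolin minus cAMP for the 29 tested members in log2(CPM + 1) as deposited, sorted by size, with SE bars from limma. Rptn at 2.28 is the only filled point (adjusted p under 0.05), and 23 of the 29 points lie right of 0.

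Other lists of genes from the same layers were chosen for their roles, with earlier results of these data known. Most of their rises as deposited were lost after median-of-ratios scaling, so both scales are given. The counts stand beside 66.3% of all tested genes higher with forskolin and 65.1% with cAMP as deposited, and 14.4% and 14.8% after rescaling (lower: 7.39% and 7.78%). As deposited, the regulators held a larger share of rises with forskolin than all tested genes, the barrier lipid genes about the same share, and the other lists with forskolin and every list with cAMP a smaller one. Of 27 regulators of cornification, 25 rose with forskolin and 15 with cAMP as deposited, and none fell. With median-of-ratios scaling 7 were higher and 1, Hopx, lower with forskolin, and 5 were higher and 3 lower with cAMP. Fosl2, a Fos-family partner in AP-1, was at 4.62 CPM in the control, 108 and 87.2 with forskolin, and 63.6 and 50.3 with cAMP. It rose by 4.13 log2 units with forskolin and 3.36 with cAMP (limma adjusted p = 7.55e-10 and 3.18e-07), and after median-of-ratios scaling by 2.21 and 1.45 (0.00064 and 0.0098). Cebpb, a transcription factor of differentiating keratinocytes, was at 2.08 CPM in the control, 30.5 and 137 with forskolin, and 67.8 and 39.2 with cAMP, and also passed on both scales (4.42 and 2.69 with forskolin, limma adjusted p = 9.55e-11 and 0.00445; 4.10 and 2.37 with cAMP, 9.15e-10 and 0.00859). Tfap2a and Arnt, further transcription factors, passed in both comparisons on both scales as well.

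Of 18 genes on the list of envelope plaque proteins, 7 rose with forskolin as deposited, none fell, and 11 were lower with median-of-ratios scaling. The list is mixed and also holds genes of other kinds, such as Calml3, Csta1 and the spinous markers Sbsn and Krtdap. With cAMP 3 rose (Pkp1, Evpl and Calml3), Csta1 fell, and 13 were lower with that scaling. Evpl, the gene of envoplakin, stood at 13.2 CPM in the control, 100.3 and 131 with forskolin, and 134 and 43.9 with cAMP. Of 15 tested genes on the barrier lipid list, which also holds the protease gene Asprv1, 10 rose with forskolin and 7 with cAMP as deposited. None fell. With median-of-ratios scaling Aloxe3, a lipoxygenase of the lipid envelope, was higher with forskolin, and Cers3 and Asprv1 were lower. With cAMP 2 were higher on that scale (Elovl4 and Slc27a4) and 4 lower (Cers3, Asprv1, Sdr9c7 and Abca12). Aloxe3 had 1.41 CPM in the control, 29.0 and 25.2 with forskolin, and 19.5 and 9.04 with cAMP.

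Of 14 tested proteases and inhibitors of shedding, 6 rose and none fell in each comparison as deposited. With median-of-ratios scaling 1 was higher (Klk13) and 6 lower with forskolin, and 2 were higher (Ctsd and Prss8) and 7 lower with cAMP. Of 5 tested keratins of the upper layers, Krt1 and Krt78 rose with forskolin and Krt78 with cAMP as deposited. None was higher with median-of-ratios scaling, where Krt77 and Krt80 were lower with forskolin and Krt10, Krt77 and Krt80 with cAMP. Of the 6 spinous markers, some of which are also in these lists, 1 rose with forskolin and none with cAMP as deposited, and 4 and 5 were lower with that scaling. Their median log2 difference on that scale was -2.30 with forskolin and -2.83 with cAMP, beside -4.16 and -4.25 for the 6 tested Lce1 genes, and the part of the spinous markers in the Lce result was not tested.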

How the data were processed

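RNA-seq reads were turned into CPM per transcript by the authors, who deposited 1 table of 59869 rows for 5 libraries. The submitters' processing notes name bcl2fastq 2.17, STAR and Partek, and the genome build is not given in the sources used here. Of the 59 listed member transcripts, 57 were in GENCODE M21 (GRCm38), 54 of them with the same start and end, so coordinates are given as GRCm38. Deposited CPM were summed per gene ID over all its transcripts (21667 genes), leaving out 3 rows with no gene, which held at most 0.0679% of a library.

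Differences were tested with limma 3.58.1 (R 4.3.3) with an intensity trend on log2(CPM + 1), over all 5 libraries in 3 groups, for the 13764 genes that reached 1 CPM in 2 or more libraries. P-values were Benjamini-Hochberg adjusted over all tested genes, with 0.05 as the threshold. A fold change on this scale understates the change of low genes. The control is 1 library and was assumed to vary like the treated ones. As deposited, the spread came mostly from a trend pooled over all tested genes, with 360.2 prior and 2 residual degrees of freedom. The prior value was 15.72 after median-of-ratios scaling and 3.767 with no filter. SEs and p-values as deposited thus say little about the spread of a gene's own libraries. The same fit was run after median-of-ratios scaling (size factors of 0.317 for the control, 1.42 and 1.31 for forskolin, 1.65 and 1.12 for cAMP, from 11512 genes). The test was checked on simulated data. Sums, tables and plots used pandas 2.3.3, scipy 1.17.1 and matplotlib 3.10.9.

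Depth is an estimate. If the smallest listed value stands for 0.0001 read, the libraries held 34200000 to 51700000 reads. Only 59.6% to 75.7% of gene sums between 0.5 and 20 reads then lay no more than 0.1 from a whole number (20% by chance), so no count model was run. "Under 1 read" uses this estimate, and the floor of 3 reads is 0.0607 CPM in the control and 0.0581 to 0.0878 in treated libraries; it covers counting error only, as no molecular identifiers are described.

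The members and gene lists were chosen with earlier results of these data known. Values in every library are given for each member called in any comparison on either scale and for the highest member of each member group, and from each list at most 4 genes with the smallest p are described with values. Members named in counts, exceptions or bounds were named after their values were seen. Shared sequence was counted as 50-base stretches of the listed transcripts that also occur in another gene. The alternatives were other scalings, pseudocounts of 0.1 and 5, no filter or one at 10 CPM, protein-coding transcripts only, each treated library left out, and a block for the replicate number.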

Additional observations from a re-analysis of the deposited data

Results flagged for a closer look

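Rptn stood 2.28 log2 units higher with forskolin than with cAMP as deposited, and limma's test of this difference passed (adjusted p = 0.00287). It is listed because of this call, which some alternatives ended. It was lost with a pseudocount of 0.1 (limma adjusted p = 0.0701), no filter (0.895) or protein-coding transcripts only (0.119). The difference was 2.19 without forskolin 1, 2.38 without forskolin 2 and 1.37 without cAMP 2.

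Hrnr is listed because both forskolin libraries (11.9 and 10.8 CPM) lay above the control (9.82 CPM) and both cAMP libraries (6.85 and 6.61 CPM) below it. The forskolin mean was 4.61 CPM above the cAMP mean. That opposite direction against the control was not tested; the forskolin minus cAMP difference itself did not pass in limma (0.67 log2 units, adjusted p = 0.932), and with median-of-ratios scaling all 4 treated libraries lay below the control.

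A 7th Flg record, which the rule for members did not take in, held 2.27 CPM in the control, 5.40 and 4.07 with forskolin, and 2.87 and 1.68 with cAMP. It is listed because its highest treated value of 5.40 CPM was above the control, in data the comparisons did not use.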

How the results depend on the processing

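As deposited, 14 members were higher and 8 lower with forskolin than in the control, and 7 and 7 with cAMP. With median-of-ratios scaling or scaling to nuclear genes the counts were 5 and 13 with forskolin and 2 and 13 with cAMP. Quantile normalization gave 2 and 13 with forskolin, and 1 and 13 with cAMP. For comparisons with the control, shares of all genes are given above for the deposited, median-of-ratios and no-filter fits. For the other fits no such share is given, so their counts describe the processing and not the members. With no filter 7 were higher and 8 lower with forskolin and 4 and 10 with cAMP, and with a filter at 10 CPM, which leaves fewer members tested, 8 were higher and 1 lower with forskolin and 6 and 1 with cAMP. Leaving out each treated library in turn gave 8 to 14 higher and 3 to 8 lower with forskolin, and 6 to 9 and 5 to 10 with cAMP. Median-of-ratios scaling with no filter, chosen after seeing the data, gave 2 and 18 with forskolin and 1 and 20 with cAMP, and with each treated library left out, likewise added, 4 to 5 and 13, and 1 to 2 and 13 to 15. For forskolin against cAMP, the 1 member called higher (Rptn) became 0 with a pseudocount of 0.1, with no filter, with protein-coding transcripts only and with median-of-ratios scaling and no filter, and the range was 0 to 2 with each library left out and 0 to 1 on the rescaled values; none was called lower. The same-numbered treated libraries shared only a number (correlation of their deviations -0.045 across 13764 genes): a replicate block over the treated libraries called 1 member higher and 0 lower, as did that fit without the block. Divided by length, the Lce share was 52.5% in the control, 3.45% with forskolin and 3.17% with cAMP (34.5%, 1.59% and 1.74% undivided), and the Sprr share 15.03%, 58.1% and 65.0% (7.66%, 44.3% and 47.0%). The 9 members with all treated libraries above the control became 4 with median-of-ratios scaling or scaling to nuclear genes. Signs turned, with causes that were not tested, mainly under rescaling. With forskolin, Ivl went to -1.91 (median-of-ratios), -1.79 (nuclear genes) and -1.84 (quantile), Hrnr to -1.78, -1.67 and -1.79, Sprr1a to -0.12 (median-of-ratios) and -0.10 (quantile), and Tgm5 to -0.0353 (quantile). With cAMP, Casp14 went to -0.0405 (median-of-ratios) and -0.0465 (quantile) and Sprr1b to -0.0444 (quantile). Median-of-ratios scaling with no filter gave -0.12 for Sprr1a, -1.91 for Ivl and -1.78 for Hrnr with forskolin, and -0.0405 for Casp14 with cAMP. With that scaling and a library left out, forskolin values were -2.06 to -1.77 for Ivl, -1.80 to -1.77 for Hrnr, -0.42 to -0.12 for Sprr1a and -0.35 for Tgm5, and cAMP values -0.49 to -0.0405 for Casp14, -1.53 for Tgm3, -0.55 for Sprr1b, -0.0583 for Sprr1a and -1.89 for Rptn, which passed (limma adjusted p = 0.0206). Lce1a1, Lce1a2, Lce1m and Sprr2a2 kept their calls in both comparisons under every alternative in which they were tested. The single control library could not be left out, and members near the floor of 3 reads cannot show a decrease.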
